A study of Mus musculus with 14 samples.

Results

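The interferon-stimulated genes described here are 36 genes named by symbol, and all 36 were found among the 48794 genes of the deposited count table by matching Ensembl identifiers to mouse symbols. The samples were livers of wild-type (WT) mice that had received no treatment. Leukocytes carrying CD45, the surface phosphatase common to white blood cells, had been sorted from needle biopsies by flow cytometry at 2500, 5000, 10000 or 20000 cells per library, with 3 libraries for each number of cells. Bulk liver tissue of the same genotype, also untreated, served as the control with 2 libraries. The labels do not say whether replicates came from separate animals, so a p-value here covers no more than the spread between these libraries, part of which may be technical.

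Interferons are secreted proteins that warn cells of viral infection. Type I interferons (alpha and beta) signal through Jak kinases to a complex that contains Stat2 and Irf9, which enters the nucleus and binds an element called the interferon-stimulated response element in the promoters of its target genes. The products of these targets recognise foreign nucleic acid, block viral entry and budding, stop translation of viral RNA and damp the signal again. In liver both hepatocytes and resident leukocytes can express them, and low expression without infection is known as tonic signalling.

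The libraries held 6723357 to 14496314 counts each, and bulk liver lay within that range at 7605290 and 8034138. Each of the 36 genes was counted in every library, with at least 11 counts in bulk liver and 57 in sorted cells, and all passed the filter on low counts. Marker genes were compared with the labels. The 5 leukocyte markers were higher in sorted cells, and the 8 hepatocyte markers were lower and reached 0.0362% to 0.791% of their bulk level. Markers of B cells, T cells, NK cells, monocytes, neutrophils and plasmacytoid dendritic cells were higher in sorted cells for all members of each list. The 5 Kupffer cell markers, of the resident macrophages that also carry CD45, were instead lower in sorted cells, with log2 fold changes of -1.40 to -0.71, although with library totals 2 of them were higher and 0 lower. The 5 markers of sinusoidal endothelium were lower at -3.66 to -2.01.

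Promoters are shown next only for some genes with the response element in the stretch searched. Ifit2 and Oasl2, for example, had none there and are not shown. Sequences are from Isg15, Bst2 and Ifit1, not higher in sorted cells under the main scaling (TMM), and Oas1a, Oas3, Gbp2 and Ifit3, which were. They come from RefSeq on GRCm38.p6, are written 5′ to 3′ on the strand of the gene, and carry in capitals the core of the element, GAAANNGAAA, or its reverse complement TTTCNNTTTC where it lies on the other strand. Overlapping matches share letters. The 3 matches of Isg15 at chr4:156200850-156200921, minus strand, start 78 to 66 bases before the RefSeq start of the gene.
Isg15: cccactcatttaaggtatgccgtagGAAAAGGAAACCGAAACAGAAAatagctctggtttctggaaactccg
The Bst2 stretch at chr8:71537562-71537627, minus strand, has 2 overlapping matches.
Bst2: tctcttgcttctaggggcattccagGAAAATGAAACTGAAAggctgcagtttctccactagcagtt
The Oas1a stretch at chr5:120907526-120907570, minus strand, also has 2.
Oas1a: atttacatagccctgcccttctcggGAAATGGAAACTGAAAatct
The Oas3 stretch at chr5:120777700-120777759, minus strand, has 1.
Oas3: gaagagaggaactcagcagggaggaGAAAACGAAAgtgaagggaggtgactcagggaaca
The Gbp2 stretch at chr3:142620579-142620638, plus strand, has 1 on the other strand.
Gbp2: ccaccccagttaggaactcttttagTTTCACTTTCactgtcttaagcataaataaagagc
The Ifit1 stretch at chr19:34640760-34640838, plus strand, has 2 separate matches on the other strand.
Ifit1: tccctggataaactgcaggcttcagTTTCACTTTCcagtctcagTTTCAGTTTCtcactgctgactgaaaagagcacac
The Ifit3 stretch at chr19:34583348-34583441, plus strand, has 2 as well, and the stretch of Ifit3b at chr19:34607744-34607837, plus strand, has the same letters.
Ifit3: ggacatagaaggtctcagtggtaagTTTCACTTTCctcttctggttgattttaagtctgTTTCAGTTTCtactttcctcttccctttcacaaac

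RefSeq windows from 250 bases before to 50 after the start were matched for 25 of the 36 genes. The other 11 are Mx1, Mx2, Oas2, Usp18, Zbp1, Dhx58, Parp9, Parp14, Rtp4, Ifi204 and Ifi27l2a. GAAANNGAAA, searched on both strands, was in the window of 15 of the 25 genes, which is 60.0%, against 3.99% of 27025 genes with such a window. TTCNNNGAA, the core of the gamma-activated site, was in 5 of the 25, or 20%, against 9.55% of the 27025. Under TMM scaling, explained next, the response element core was in 7 of 15 windows of genes with a higher level in sorted cells, in 5 of 7 windows of genes with a lower level and in 3 of 3 windows of genes that did not pass the test. Genes of either direction thus had windows with and windows without these letters. Over 260 aligned bases the promoters of Ifit3 and Ifit3b were identical at 259, or 99.6%.

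The first comparison asked which of the genes had higher levels in sorted leukocytes and which in bulk liver. Counts were scaled in 2 ways, because the answer depends on it. TMM (trimmed mean of M values) sets the scale on the assumption that most genes do not differ, and library totals set it by the sum of all counts. Under TMM 13079 of the 16294 genes tested were called in either direction, so the assumption is in doubt for this comparison. The TMM factors were 0.492 and 0.486 for bulk liver and 1.12 to 1.15 for sorted cells, and library totals moved the median log2 fold change of all genes by 1.20, from 0.17 to 1.37. Values are given as CPM, counts scaled to library size with TMM unless library totals are named, and folds are sorted cells over bulk liver from edgeR's quasi-likelihood test.

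Under TMM scaling 22 of the 36 genes were higher in sorted cells, where 41.8% of the 16294 genes tested were higher, 10 were lower, where 38.5% of all genes were, and 4 did not pass (Ifit1, Ifit3b, Rsad2 and Rtp4). With library totals 30 were higher, against 65.9% of all genes, 4 were lower (Bst2, Ifih1, Ifitm2 and Ifitm3), against 22.4%, and 2 did not pass (Isg15 and Oasl1). The share of higher genes among all calls moved from 52.0% to 74.6%. Counts by role given below are read beside the shares of all genes above, and each role holds few genes. The median log2 fold change of the 36 genes was 0.51 under TMM and 1.71 with library totals. Measured against the median of all genes, 22 of the 36 lay above and 14 below it under either scaling. The change of scaling shifts all genes nearly alike, so these numbers could hardly differ between the scalings. In bulk tissue, fewer cells of a type and less RNA per cell cannot be told apart.

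**Figure D1:**
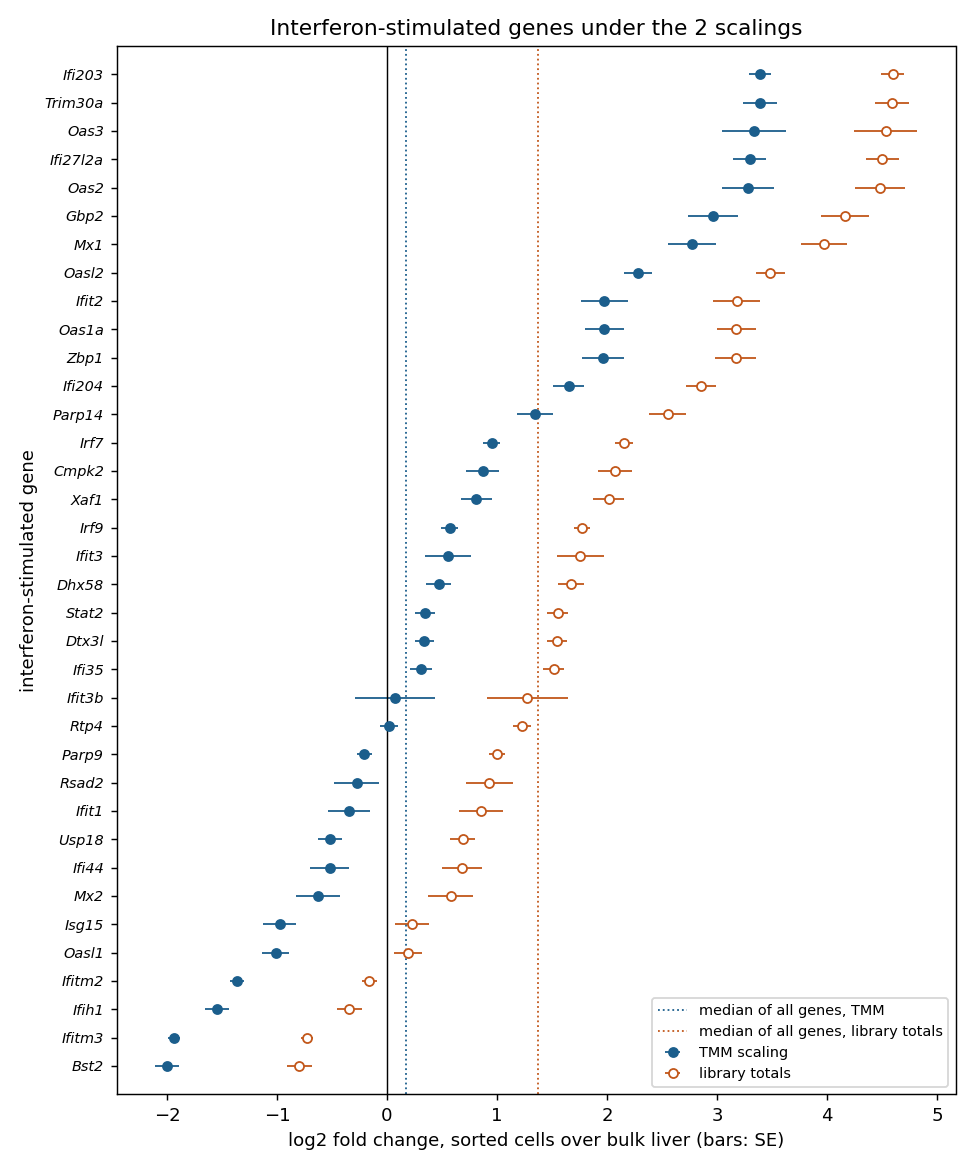
Log2 fold change of each of the 36 genes in sorted cells over bulk liver (horizontal axis; 12 against 2 libraries) under TMM (filled) and library totals (open), with standard errors as bars and the median of all genes as dotted lines. Every gene lies further right with library totals, and Bst2, Ifitm3, Ifih1 and Ifitm2 stay left of 0 under both.

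The 36 genes together took 0.167% ± 0.00365 (SD, n = 2) of the counts in bulk liver and 0.360% ± 0.0133 (SD, n = 12) in sorted cells. A share of counts is a scaling by library totals. Under TMM the direction turned, with a sum of 3423 ± 48.4 CPM (SD, n = 2) in bulk liver and 3198 ± 130 CPM (SD, n = 12) in sorted cells. Without Bst2, Ifitm2 and Ifitm3 it did not turn, but these were all called lower in sorted cells, and leaving out such genes favours that outcome. The other 33 genes summed to 1587 and 1486 CPM (TMM) in bulk liver and to 2465 to 2857 CPM in sorted cells. As shares of counts, Bst2, Ifitm2 and Ifitm3 alone took 0.0922% in bulk liver, more than the other 33 genes with 0.0751%. In sorted cells the same genes took 0.0591% and the other 33 took 0.301%. Bulk levels were 9.52% (Ifi203) to 397% (Bst2) of sorted levels under TMM, with a median of 70.2%, whereas the 5 leukocyte markers reached 0.559% (Coro1a) to 3.43% (Laptm5).

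**Figure D2:**
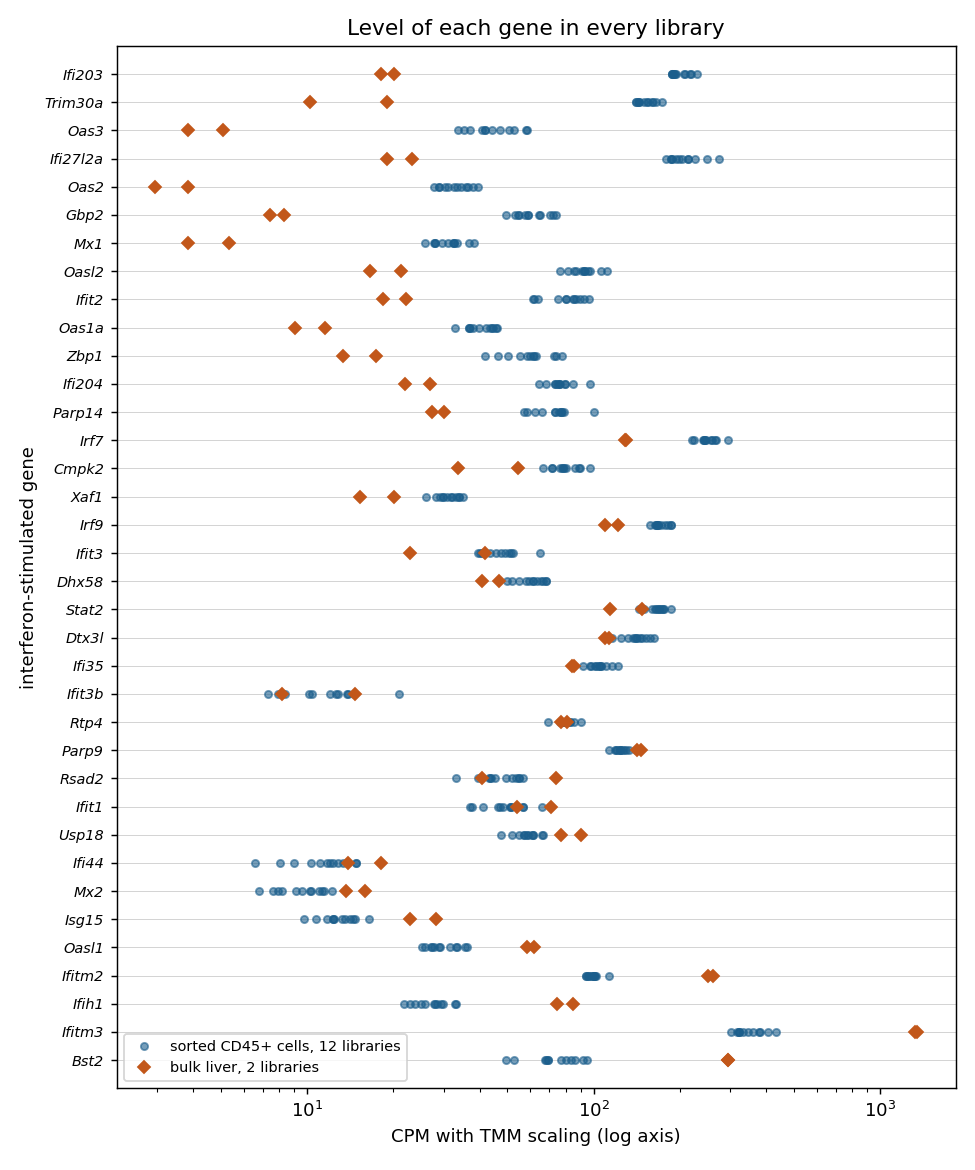
CPM with TMM scaling (log axis) of the 36 genes in each of the 12 libraries of sorted cells (circles) and the 2 of bulk liver (diamonds), ordered by fold change. Bulk liver lies left of all sorted libraries for the genes at the top, within them for genes such as Rtp4 and Ifit3b, and right of them for Ifitm3 and Bst2 at the bottom.

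The transcription factors that carry the signal were all higher in sorted cells. Irf7, which amplifies type I interferon production, stood at 130 and 129 CPM in bulk liver and at 221, 246 and 293 CPM (lowest, median and highest) in the 12 sorted libraries, with no overlap. Its log2 fold change was 0.95 (SE 0.08) under TMM and 2.16 (SE 0.08) with library totals. Irf9, the DNA-binding partner in the Stat complex, had 109 and 122 CPM in bulk liver against 157, 168 and 187 CPM, and a log2 fold change of 0.57 (SE 0.07). Stat2 had 114 and 147 CPM in bulk liver against 144, 168 and 186 CPM, so that bulk replicate 2 overlapped the sorted range. Its log2 fold change of 0.35 (SE 0.09) passed by edgeR's quasi-likelihood test with Benjamini-Hochberg adjustment (adjusted p = 0.00193), and without bulk replicate 1 it did not (adjusted p = 0.0624). Exons of Irf7 overlap those of Phrf1 on the opposite strand and a strand setting for the counting was not given in the sources used here. Exons of Irf9 overlap those of Rnf31 on the same strand.

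Of 5 sensors of foreign RNA and DNA, 4 were higher in sorted cells and 1 was lower, where 41.8% and 38.5% of all genes were. Ifi203, of the family of nuclear DNA-binding proteins with a pyrin domain, had 20.1 and 18.2 CPM in bulk liver against 187, 193 and 229 CPM, a log2 fold change of 3.39 (SE 0.10) or 10.5-fold. Its exons overlap those of Mndal, a related gene on the same strand, so its reads may be divided between them. Ifi204, of the same family and a DNA sensor, had 21.9 and 26.9 CPM against 64.3, 75.5 and 96.9 CPM. Zbp1, a sensor of Z-form nucleic acid that can start necroptosis, had 17.4 and 13.3 CPM against 41.7, 60.8 and 77.8 CPM. Bulk liver lay below every sorted library for all of them.

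Both helicases of the RIG-I family among the 36 had moderate levels in bulk liver, and they went opposite ways. Dhx58 (LGP2) had 46.8 and 40.7 CPM in bulk liver against 49.7, 61.3 and 68.0 CPM in sorted cells, a log2 fold change of 0.47 (SE 0.11). Ifih1 (MDA5), which detects long double-stranded RNA, had 84.5 and 74.5 CPM in bulk liver against 21.7, 27.8 and 33.2 CPM. That is 2.92-fold higher in bulk liver under TMM, a log2 fold change of -1.54 (SE 0.11), and still -0.34 (SE 0.11) with library totals. With library totals the ranges overlapped, with bulk replicate 2 at 36.2 CPM and the highest sorted library at 37.4 CPM. On the TPM, the deposited abundances per length, the difference turned to 0.24 and did not pass (adjusted p = 0.13, limma on log2(TPM + 1)).

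The ubiquitin-like protein Isg15 and its protease Usp18, which also blocks the type I receptor, were both lower in sorted cells under TMM. Isg15 had 28.1 and 22.8 CPM in bulk liver against 9.79, 12.8 and 16.5 CPM, a log2 fold change of -0.98 (SE 0.15). With library totals it turned to 0.23 (SE 0.15) and did not pass. Usp18 had 90.4 and 77 CPM against 47.4, 58.8 and 66.7 CPM, a log2 fold change of -0.52 (SE 0.11) that turned to 0.69 with library totals. Its call under TMM was lost without bulk replicate 1 (adjusted p = 0.0510, edgeR's quasi-likelihood test).

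The ADP-ribosyltransferases Parp9 and Parp14 and the ubiquitin ligase Dtx3l, the partner of Parp9, lie together on chromosome 16. Parp14 had 30.0 and 27.4 CPM in bulk liver against 57.3, 74.5 and 101 CPM in sorted cells, a log2 fold change of 1.35 (SE 0.16). Dtx3l had 110 and 113 CPM against 116, 141 and 162 CPM, a log2 fold change of 0.34 (SE 0.09). Parp9 had 147 and 141 CPM against 113, 124 and 140 CPM, and its log2 fold change of -0.21 (SE 0.07) turned to 1.00 with library totals. The TMM call of Parp9 was lost without either bulk library (adjusted p = 0.285 without replicate 1 and 0.127 without replicate 2, edgeR's quasi-likelihood test). Parp9 and Dtx3l overlap at their exons on opposite strands, so their reads cannot be told apart without strand.

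Among the GTPases, Mx1 and Mx2, neighbours 72.4 kb apart on chromosome 16, differed in direction. Mx1, whose protein blocks influenza-like viruses in the nucleus in resistant mice, had 5.35 and 3.84 CPM in bulk liver against 25.9, 31.7 and 38.2 CPM. Its log2 fold change was 2.77 (SE 0.22) under TMM and 3.97 with library totals. Mx2 had 13.6 and 15.9 CPM against 6.77, 9.90 and 12.2 CPM, a log2 fold change of -0.62 (SE 0.20), and 0.58 with library totals. Without bulk replicate 2 the TMM call of Mx2 was lost (adjusted p = 0.168, edgeR's quasi-likelihood test). Gbp2, a guanylate-binding protein that attacks the vacuoles of intracellular pathogens, had 8.29 and 7.42 CPM against 49.6, 59.1 and 73.8 CPM, a log2 fold change of 2.96 (SE 0.22).

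The IFIT genes, whose products bind viral RNA and stop its translation, lie in 1 cluster on chromosome 19. Of the 4, 2 were higher in sorted cells, where 41.8% of all genes were. Ifit2 had 22.2 and 18.4 CPM in bulk liver against 61.3, 82.5 and 96.3 CPM, a log2 fold change of 1.97 (SE 0.21). Ifit3 had 41.7 and 22.8 CPM against 39.5, 46.5 and 64.9 CPM, so that bulk replicate 1 lay inside the sorted range and replicate 2 below it. Its log2 fold change of 0.55 (SE 0.21) passed with an adjusted p of 0.0238 by edgeR's quasi-likelihood test and did not pass without bulk replicate 2 (adjusted p = 0.354). The Ifit3 call was also lost with DESeq2 size factors (0.44, adjusted p = 0.0683, edgeR's quasi-likelihood test) and against bulk liver at 10000 cells (adjusted p = 0.0909) and 20000 cells (adjusted p = 0.0594) alone.

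Neither of the remaining IFIT genes passed under TMM. Ifit1 had 71.1 and 54 CPM in bulk liver against 37.1, 49.6 and 65.9 CPM, with a log2 fold change of -0.35 (SE 0.19) and an adjusted p of 0.11 by edgeR's quasi-likelihood test. It was called lower, at -0.41 (adjusted p = 0.0249), without replicate 3 of the 2500-cell libraries. Ifit3b had 14.7 and 8.19 CPM against 7.30, 12.3 and 20.8 CPM, a log2 fold change of 0.08 (SE 0.36) that turned to -0.23 without bulk replicate 2. Ifit3 and Ifit3b belong to 1 family and have nearly identical promoters. How alike their transcripts are was not examined, so how reads were divided between them is uncertain. With library totals the log2 fold changes of Ifit1 and Ifit3b were 0.86 and 1.28, and both passed.

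The OAS genes encode synthetases of 2′-5′-linked oligoadenylate, which activates RNase L, and related proteins. Of the 5, 4 were higher in sorted cells, where 41.8% of all genes were. Oas3 had 5.08 and 3.84 CPM in bulk liver against 33.7, 42.9 and 58.6 CPM, a log2 fold change of 3.33 (SE 0.29). Oas2, 3.24 kb from it, had 2.94 and 3.84 CPM against 27.7, 33.0 and 39.4 CPM, a log2 fold change of 3.28 (SE 0.23). Both were 9.71-fold to 10.1-fold higher in sorted cells. Oas1a had 9.09 and 11.5 CPM against 32.8, 41.0 and 45.9 CPM, a log2 fold change of 1.97 (SE 0.18).

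The related Oasl1 and Oasl2, 11 kb apart on chromosome 5, differed in direction under TMM. Oasl2 had 16.6 and 21.2 CPM in bulk liver against 76.3, 92.3 and 111 CPM, a log2 fold change of 2.28 (SE 0.13). Oasl1, known to hold back translation of Irf7, had 62.1 and 58.6 CPM against 25.2, 29.0 and 36.1 CPM, a log2 fold change of -1.01 (SE 0.12). With library totals Oasl1 was at 0.19 and did not pass. Exons of Oasl1 overlap those of an antisense gene, Gm13822.

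Rsad2 and Cmpk2 are neighbours 12.8 kb apart on opposite strands of chromosome 12. Rsad2 (viperin) makes a nucleotide that ends viral RNA chains, and Cmpk2 is a mitochondrial nucleotide kinase. Cmpk2 had 54.3 and 33.5 CPM in bulk liver against 66.5, 78.5 and 97.1 CPM, a log2 fold change of 0.87 (SE 0.15). Rsad2 had 74.1 and 40.7 CPM against 33.1, 47.3 and 56.6 CPM, so that bulk replicate 1 lay above all sorted libraries and replicate 2 among them. Its log2 fold change of -0.27 (SE 0.20) did not pass by edgeR's quasi-likelihood test (adjusted p = 0.230). Without bulk replicate 2 it was -0.58 and passed (adjusted p = 0.0263, edgeR's quasi-likelihood test), without bulk replicate 1 it turned to 0.28 and did not pass, and with library totals it was 0.93 and passed.

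The 3 membrane restriction factors were the role with no gene higher in sorted cells under either scaling of the counts. Bst2 (tetherin), which holds budding virions at the cell surface, had 294 CPM in both bulk libraries against 49.6, 73.1 and 94.4 CPM, a log2 fold change of -2.0 (SE 0.11) or 4.00-fold higher in bulk liver. Ifitm3, which blocks fusion of viruses in endosomes, had 1325 and 1348 CPM against 301, 339 and 434 CPM, a log2 fold change of -1.93 (SE 0.05). Ifitm2 had 251 and 261 CPM against 94.1, 99.4 and 113 CPM, a log2 fold change of -1.37 (SE 0.06). Exons of Ifitm2 overlap those of Gm45717, a protein-coding gene on the same strand. Under TMM no sorted library reached bulk liver for any of the 3, and with library totals the ranges of Ifitm2 overlapped.

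With library totals the log2 fold changes were -0.80 (SE 0.11) for Bst2, -0.73 (SE 0.06) for Ifitm3 and -0.16 (SE 0.07) for Ifitm2. On log2(TPM + 1), Ifitm3 remained lower at -0.21 and Bst2 did not pass at -0.28 (adjusted p = 0.0664, limma). There Ifitm2 turned to 0.37 and passed as higher in sorted cells (adjusted p = 5.91e-05, limma). Bst2 is also used as a surface marker of plasmacytoid dendritic cells in mice. The 5 markers listed for those cells summed to 0.00218% to 0.00241% of counts in bulk liver and to 0.0607% to 0.0753% in sorted cells, opposite to Bst2, and Cox6a2 was the marker at 0 in both bulk libraries. Hepatocyte markers were higher in bulk liver under both scalings, with 4.55% to 4.60% of counts against 0.00903% to 0.0136% in sorted cells, and so were those of sinusoidal endothelium, with 0.0165% to 0.0179% against 0.00401% to 0.00880%. The Kupffer cell markers depended on the scaling: as shares of library totals they summed to 0.0277% to 0.0345% in bulk liver and 0.0282% to 0.0511% in sorted cells, and under TMM to 564 to 709 CPM in bulk liver and 252 to 445 CPM in sorted cells. The part of these cells in the levels of the 3 genes was not tested.

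Of the other 6 genes, 4 were higher in sorted cells, 1 was lower and 1 did not pass, where 41.8% of all genes were higher and 38.5% lower. Trim30a, a tripartite-motif protein, had 19.0 and 10.2 CPM in bulk liver against 140, 152 and 173 CPM, a log2 fold change of 3.39 (SE 0.15). Ifi27l2a had 19.0 and 23.3 CPM against 179, 201 and 273 CPM, a log2 fold change of 3.30 (SE 0.15). Xaf1, an antagonist of the apoptosis inhibitor XIAP, had 20.1 and 15.4 CPM against 26.0, 31.3 and 35.1 CPM. Bulk liver lay below every sorted library for each of these.

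Ifi35 had 83.7 and 85.2 CPM in bulk liver against 92.0, 104 and 121 CPM, and its log2 fold change of 0.31 (SE 0.10) was lost with DESeq2 size factors (0.19, adjusted p = 0.0715, edgeR's quasi-likelihood test). Ifi44 had 13.9 and 18.2 CPM against 6.61, 11.9 and 14.8 CPM, with bulk replicate 1 inside the sorted range. Its log2 fold change of -0.52 (SE 0.18) was lost without bulk replicate 2 (adjusted p = 0.381, edgeR's quasi-likelihood test) and turned to 0.68 with library totals. Rtp4, a receptor transporter protein, had 80.8 and 76.8 CPM against 69.4, 79.8 and 90.0 CPM, a log2 fold change of 0.02 (SE 0.08). The ranges of Rtp4 overlapped fully under TMM, and with library totals it was 2.34-fold higher in sorted cells.

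Ratios of 2 genes within a library do not depend on how libraries are scaled, and the pairs given here were chosen after their values were seen. Counts are not divided by gene length, so each ratio is read only between libraries. Mx1 over Mx2 was 0.392 and 0.242 in bulk liver and 2.42 to 5.64 in sorted cells. Oasl2 over Oasl1 was 0.267 and 0.362 in bulk liver and 2.11 to 3.67 in sorted cells, and Ifit2 over Ifit1 was 0.312 and 0.341 against 1.32 to 2.14. For these pairs the ratios of bulk liver and sorted cells did not overlap, which the way the pairs were chosen favours. How often other pairs of genes would do so was not examined. Ifit3 over Ifit3b, another IFIT pair, lay closer, at 2.84 and 2.78 in bulk liver against 3.11 to 5.63. Ifi203 over Ifih1 was 0.237 and 0.244 in bulk liver against 6.25 to 8.76. Ifitm3 over Ifitm2 was 5.28 and 5.16 against 2.97 to 4.35. Usp18 over Isg15 came close, at 3.22 and 3.38 against 3.46 to 5.75.

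Levels of different genes were compared per length, on the deposited TPM. In bulk liver Ifitm3 was first of the 36 at 1075 TPM (mean of 2), followed by Ifitm2 at 367, Bst2 at 187 and, after a wide gap, Rtp4 at 32.3 TPM. In sorted cells Ifi27l2a was first with a median of 962 TPM, against 30.0 TPM in bulk liver, but its range of 825 to 1201 TPM covered the median of Ifitm3, second at 922 TPM. Ifitm2 followed at 475, Ifi203 at 365 and Irf7 at 203 TPM. The lowest medians in sorted cells were those of Ifi44 at 6.12 and Mx2 at 6.38 TPM, and the ranges of these overlapped. In bulk liver Oas2 and Oas3 were lowest, at 0.410 and 0.495 TPM.

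The second comparison asked whether the levels depended on the number of sorted cells. The 12 sorted libraries were scaled with TMM among themselves, and 14795 genes were tested. Of the 36 genes, 1 differed among the 4 inputs, where 0.297% of all genes did, and it was Ifitm3. At an unadjusted p under 0.05 by edgeR's quasi-likelihood test, 8 of the 36 did, or 22.2%, against 10.8% of all genes. Ifitm3 had 363, 343 and 387 CPM at 2500 cells, 405, 377 and 427 CPM at 5000, 359, 363 and 361 CPM at 10000 and 486, 426 and 455 CPM at 20000. The 3 libraries of 20000 cells were above all those of 2500 and 10000 cells, and 1 of them was just under the highest of 5000 cells. The order was therefore not that of the cell numbers.

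Ifitm3 differed among inputs with an adjusted p of 0.0429 by edgeR's quasi-likelihood test. Against 20000 cells it was lower at 2500 by -0.32 on the log2 scale (SE 0.06, with an adjusted p of 0.0334 by edgeR's quasi-likelihood test), where 0.419% of all genes were called. At 10000 cells it was lower by -0.34 (SE 0.06, adjusted p = 0.0315, edgeR's quasi-likelihood test), where 0.304% were called. These calls were not stable: leaving out single libraries gave an adjusted p for any difference of up to 0.264, reached without replicate 3 of 20000 cells, and library totals gave 0.0677, both by edgeR's quasi-likelihood test. The call for any difference was kept without 2500-cell replicates 2 and 3 and 5000-cell replicate 2, and it was lost without each of the other 9 libraries. At 2500 cells the call was lost without 2500-cell replicates 1 and 2, 5000-cell replicate 1 and 20000-cell replicates 1 and 3, and at 10000 cells without each single library of 10000 cells and without 20000-cell replicate 1 or 3. Without 20000-cell replicate 3 the adjusted p was 0.159 for 2500 and 0.174 for 10000 cells. Monocyte markers took 0.196%, 0.210%, 0.194% and 0.211% of counts from 2500 to 20000 cells, neutrophil markers 0.114%, 0.102%, 0.0774% and 0.126%, and Kupffer cell markers 0.0421%, 0.0346%, 0.0421% and 0.0297%. Their part in the level of Ifitm3 was not tested.

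**Figure D3:**
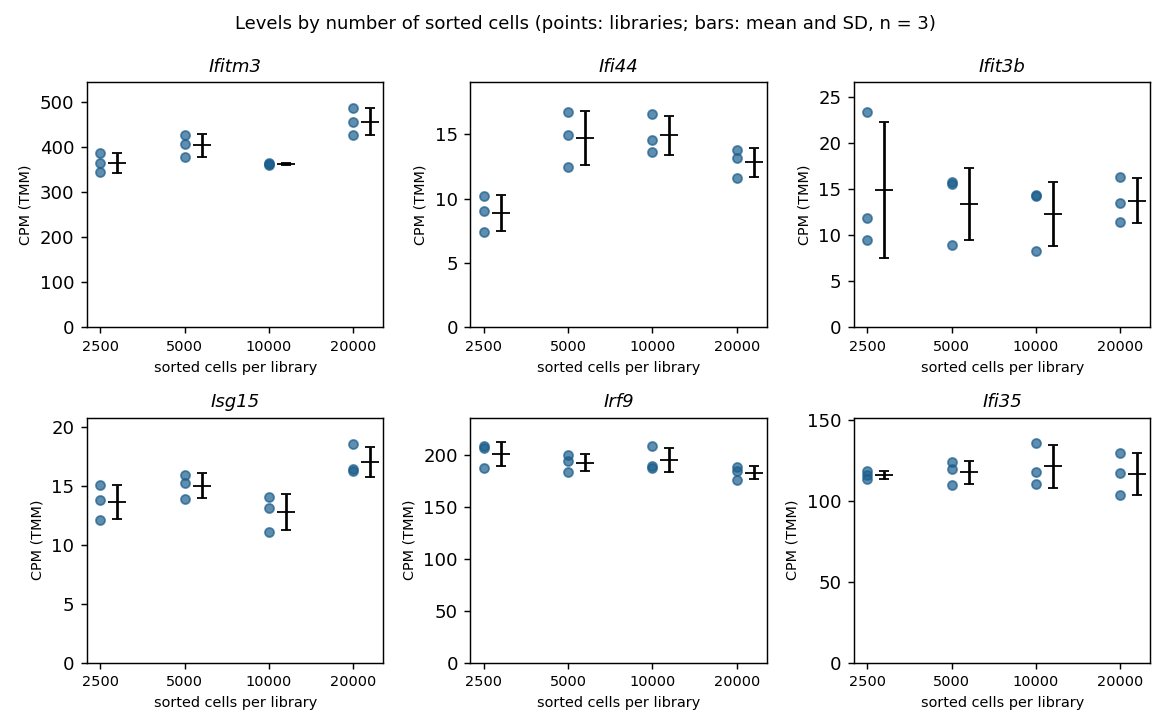
CPM scaled among the sorted libraries (vertical axes from 0) of 6 of the genes at 2500, 5000, 10000 and 20000 sorted cells per library, with single libraries as points and mean and SD (n = 3) beside them. The 3 libraries of 20000 cells are highest for Ifitm3 at 456 ± 30.2 CPM but for 1 that lies just under a library of 5000 cells, and the means of Ifi35 run from 116 to 121 CPM.

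At 5000 against 20000 cells 0 of the 36 genes were called by edgeR's quasi-likelihood test, where 0.0879% of all genes were. At an unadjusted p under 0.05 there were 7, or 19.4%, against 8.13% of all genes, and DESeq2 called 0 of the 36. A slope over the log2 of the cell number was found for 0 of the 36 genes by edgeR's quasi-likelihood test and for 0 by DESeq2, where edgeR called 0.0811% of all genes. There 3 of the 36, or 8.33%, had an unadjusted p under 0.05, against 10.7% of all genes. The highest mean over the lowest of the 4 inputs ranged from 1.05-fold (Ifi35) to 1.68-fold (Ifi44), with a median of 1.15-fold.

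Ifi44 had 9.04, 10.2 and 7.40 CPM at 2500 cells, below the 12.5, 16.7 and 14.9 CPM at 5000, the 14.5, 13.6 and 16.6 CPM at 10000 and the 13.1, 11.6 and 13.8 CPM at 20000. Its groups did not overlap between 2500 cells and the rest, yet it did not pass for any difference (adjusted p = 0.147, edgeR's quasi-likelihood test). Isg15 had 13.6 ± 1.48, 15.0 ± 1.05, 12.8 ± 1.52 and 17.1 ± 1.27 CPM (SD, n = 3 each) from 2500 to 20000 cells, with 0 calls. Bst2 had 73.8 ± 16.1, 88.3 ± 9.56, 70.9 ± 9.69 and 101 ± 6.70 CPM (SD, n = 3 each), the same order of inputs as Ifitm3 with the lowest pair at 2500 and 10000. Bst2 did not pass for any difference (adjusted p = 0.232, edgeR's quasi-likelihood test).

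Of the 36 genes, 12 had their highest mean at 2500 cells, 9 at 5000, 5 at 10000 and 10 at 20000. The lowest mean fell at 10000 cells for 16. The share of counts taken by the 36 genes was 0.352%, 0.370%, 0.352% and 0.368% from 2500 to 20000 cells. The median SD within an input for the 36 genes on the log2 scale was 0.14, 0.13, 0.14 and 0.11 from 2500 to 20000 cells, beside 0.14, 0.11, 0.10 and 0.10 for the 9721 genes from 10 CPM. Across all 12 libraries the highest value over the lowest ran from 1.19-fold (Irf9) to 2.86-fold (Ifit3b). The single high value of Ifit3b was 23.4 CPM in replicate 3 of 2500 cells, where Ifit1 at 73.8 and Ifit3 at 72.7 CPM were also at their highest.

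Each input was also set against bulk liver on its own in the same fit. Under TMM 22, 22, 20 and 21 of the genes were higher and 8, 9, 9 and 10 lower at 2500, 5000, 10000 and 20000 cells. Of all genes 40.5%, 40.6%, 40.7% and 41.0% were higher and 37.4%, 37.4%, 37.6% and 36.8% lower. The comparisons share the 2 bulk libraries. Bst2 gave log2 fold changes of -2.17, -1.90, -2.22 and -1.71, and Ifi203 3.36, 3.39, 3.30 and 3.51. Ifi44 passed at 2500 cells with -1.02 and at 20000 with -0.49, and gave -0.29 and -0.28 between them without passing. Mx2 did not pass at 2500 cells alone (-0.36), nor did Parp9 (-0.14).

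The 2 bulk libraries differed from each other in part of the list. As library totals, replicate 1 was at least 1.5-fold above replicate 2 for 5 of the 36 genes, or 13.9%, against 3.93% of the 12776 genes from 1 CPM in bulk liver. They were Trim30a at 1.88 (95% counting interval 1.26 to 2.84), Ifit3 at 1.85 (1.42 to 2.43), Rsad2 at 1.84 (1.51 to 2.25), Ifit3b at 1.82 (1.15 to 2.90) and Cmpk2 at 1.64 (1.31 to 2.06). Intervals are exact binomial ones and cover counting error only. In all, 23 of the 36 genes, or 63.9%, were higher in replicate 1, against 50.2% of all genes, and the median ratios were 1.09 and 1.00.

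Not every gene of the list moved that way between the bulk libraries. Intervals lay above 1 for 7 genes and below 1 for 1, Stat2 at 0.786 (0.692 to 0.893). Such intervals were not counted over all genes, so these numbers are not read as a trait of the list. Bst2, Ifitm3, Ifi35 and Dtx3l had almost the same level in both. Of the neighbours Rsad2 and Cmpk2, both were higher in replicate 1, as were Ifit1, Ifit3 and Ifit3b of the chromosome 19 cluster. With 2 bulk libraries this difference has no replicate check.

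**Figure D4:**
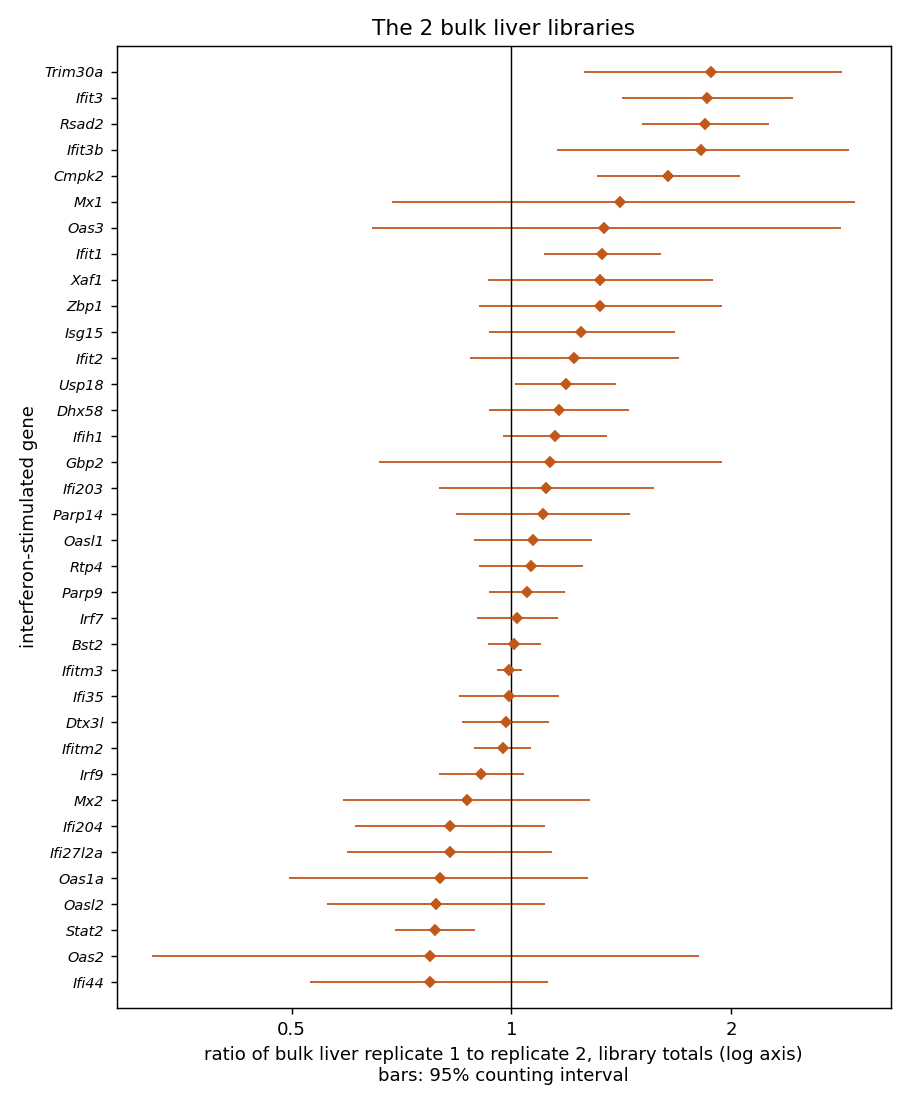
Ratio of bulk liver replicate 1 to replicate 2 for the 36 genes by library totals (log axis), with 95% counting intervals as bars. Trim30a, Ifit3, Rsad2, Ifit3b and Cmpk2 lie between 1.64 and 1.88, Bst2 and Ifitm3 at about 1, and Stat2 at 0.786 with its interval below 1.

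The list was set beside 47 other genes of the interferon pathway. Under TMM 30 of these were higher in sorted cells, 4 were lower (Iigp1, Irgm1, Mavs and Ube2l6), 7 did not pass and 6 were too low to test, and with library totals 38 were higher and 3 lower. Of all genes tested, 41.8% were higher and 38.5% lower under TMM, and 65.9% and 22.4% with library totals. The counts by role given below have the same shares of all genes beside them. The ligands of type I and type III were nearly uncounted: Ifna1, Ifna2, Ifna4, Ifnl2 and Ifnl3 had 0 counts in all libraries, and Ifnb1 had 1 count in 1 sorted library. A count of 0 allows up to 3 counts per group, which equals 0.0233 CPM (TMM) for the sorted and 0.392 CPM (TMM) for the bulk libraries, for counting error only. Ifng, the type II interferon of T and NK cells, had 1778 counts over the sorted libraries and 2 over bulk liver, a ratio of 52.9 with a 95% counting interval of 14.6 to 437.

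Of 6 receptor chains, 5 were higher in sorted cells and Ifnar2 did not pass. Among the 5, Ifnlr1 was near the floor, with 1 and 0 counts in bulk liver and 2 to 23 in sorted libraries. The ranges of Ifnlr1 overlapped under TMM. Ifngr1, the binding chain for interferon gamma, had 64.2 and 60.4 CPM in bulk liver against 623, 683 and 742 CPM, a log2 fold change of 3.45 (SE 0.08), and Ifngr2 had one of 1.21 (SE 0.09). The receptor kinases were higher 3 of 3, from Tyk2 at 1.23 (SE 0.12) to Jak2 at 3.17 (SE 0.09). Among the other transcription factors Irf8, needed for dendritic cells and monocytes, had the highest fold change, with 16.9 and 18.2 CPM against 730, 855 and 891 CPM, a log2 fold change of 5.58 (SE 0.10), and Irf2 had the lowest of those called at 0.99 (SE 0.08).

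Of 9 upstream sensors, adaptors and kinases 7 were higher, 1 was lower and 1 did not pass. Tlr7, the endosomal receptor for single-stranded RNA, had 3.21 and 3.07 CPM in bulk liver against 91.6, 98.2 and 108 CPM. Mavs, a mitochondrial adaptor of RNA sensing, had 144 and 163 CPM in bulk liver against 37.1, 39.7 and 44.9 CPM, a log2 fold change of -1.93 (SE 0.07) and -0.72 with library totals. On log2(TPM + 1) it was -0.17 and did not pass.

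The enzymes that attach Isg15 went different ways. Uba7, which activates Isg15, had 31 and 25.9 CPM in bulk liver against 167, 204 and 226 CPM, a log2 fold change of 2.82 (SE 0.09). Ube2l6, the next enzyme of the chain, had 150 and 142 CPM against 34.4, 43.2 and 50.3 CPM, a log2 fold change of -1.74 (SE 0.10) and -0.54 with library totals. On log2(TPM + 1) Ube2l6 was -0.24 and did not pass. The count ratio of Uba7 over Ube2l6 within a library was 0.207 and 0.182 in bulk liver and 3.92 to 6.06 in sorted cells.

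Uba7 was also the single gene of the 47 that was called between inputs. It had 244 ± 11.5 CPM at 2500 cells and 199 ± 11 CPM at 20000 (SD, n = 3 each), 0.29 apart on the log2 scale (SE 0.06, with an adjusted p of 0.0441 by edgeR's quasi-likelihood test). The call was lost in 11 of 12 repeats with a library left out, with adjusted p values from 0.0567 to 0.181 by edgeR's quasi-likelihood test, and was kept without replicate 1 of 2500 cells.

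The 3 negative regulators were all higher in sorted cells, from Socs3 at 1.42 (SE 0.14) to the phosphatase Ptpn6 at 4.35 (SE 0.08). Of 10 genes that respond mainly to interferon gamma 5 were higher, 2 were lower and 3 did not pass. Gbp9 had 11 and 7.93 CPM in bulk liver against 145, 169 and 185 CPM, a log2 fold change of 4.15 (SE 0.14). Iigp1, a GTPase that coats the vacuoles of parasites, had 785 and 754 CPM in bulk liver against 9.54, 15.4 and 22.2 CPM. It was 50.2-fold higher in bulk liver, with a log2 fold change of -5.65 (SE 0.14) under TMM and -4.44 with library totals, further than any of the 36 genes in that direction. Irgm1, a related GTPase, was at -0.51 (SE 0.07) under TMM and turned to 0.70 with library totals.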

How the data were processed

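RNA had been purified on columns with DNase, and, per the labels' protocols, a SMART-seq kit for ultra-low input gave cDNA that was then tagmented. The authors deposited raw counts per gene, used for all main results, and TPM, used for levels between genes and for 1 alternative. A deposited table of variance-stabilised values was not used here. Per the submitters' processing notes, the tools were DESeq2 1.34.0, FastQC 0.11.5, RSEM 1.3.0, STAR 2.5.2b and featureCounts 1.5.1 and the build GRCm38, with no role or strand setting given. Symbols were matched for 48348 of 48794 gene IDs, and coordinates come from GENCODE annotation on GRCm38. All 14 libraries were mapped to groups by their labels.

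Genes were filtered with filterByExpr and tested with edgeR 4.0.16 (quasi-likelihood, robust, TMM; R 4.3.3) with Benjamini-Hochberg adjustment over all genes tested and a threshold of 0.05. Sorted cells against bulk liver is the mean of the 4 inputs minus bulk liver over 14 libraries, and inputs were compared over the 12 sorted libraries. The scripts were tested on simulated data. Alternatives were library totals, DESeq2 size factors, DESeq2 1.42.0, limma-voom (limma 3.58.1), no filter on low counts, the replicate number as a block, limma on log2(TPM + 1), each input alone and each library left out.

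The list members, the other pathway genes and the markers were chosen with earlier results of these data known. All members are accounted for. Of the other pathway genes, those with the highest and lowest called fold change per role were named, with every gene called between inputs and those with 0 or 1 count.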

Additional observations from a re-analysis of the deposited data

How the results depend on the processing

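Bulk liver has 2 libraries, so each call against it rests on few samples, and low genes such as Mx2, Ifi44, Oas2 and Oas3 are limited by depth in bulk liver. With library totals the log2 fold change of sorted cells over bulk liver turned positive for Isg15 (0.23), Mx2 (0.58), Ifit1 (0.86), Oasl1 (0.19), Rsad2 (0.93), Usp18 (0.69), Ifi44 (0.68) and Parp9 (1.00). With limma on log2(TPM + 1) it did so for Isg15 (0.70), Mx2 (1.08), Ifit1 (1.32), Oasl1 (0.51), Rsad2 (1.62), Usp18 (1.18), Ifi44 (1.00), Parp9 (1.40), Ifih1 (0.24) and Ifitm2 (0.37). Library totals shift all genes alike. Members called lower then numbered 4 with library totals and 1 with TPM, and over all genes 10737 and 11373 were higher and 3654 and 2895 lower. Ifit1 was called lower with DESeq2 size factors and with DESeq2 (-0.46 in both), and without a filter the calls of Mx2, Ifi44 and Parp9 were lost.

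Between inputs, the members that differed numbered 1 in the reported fit, 0 with library totals, limma-voom and TPM, 3 with DESeq2 and 5 without a filter, and over all genes 44 became 303 with DESeq2, 28 with limma-voom, 605 without a filter and 5 with TPM. For the slope, 12 genes became 122, 4, 19 and 0 under the same settings. At 2500 against 20000 cells the members numbered 2 with DESeq2, 4 without a filter and 0 with TPM, and 62 genes became 272, 37 with limma-voom, 397 and 7. At 5000 cells 13 genes became 87, 203 without a filter and 1 with TPM. At 10000 cells the members numbered 0 with library totals, 3 with DESeq2, 5 without a filter and 0 with TPM, and 45 genes became 21, 181, 286 and 2, with 22 under limma-voom. The cause was not tested.

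With 1 library left out, members called higher in sorted cells numbered 21 to 22 and lower 8 to 11, and all genes 6245 to 6934 and 5692 to 6305. Members called between inputs numbered 0 to 1 for any difference, 0 to 1 at 2500 cells, 0 at 5000, 0 to 3 at 10000 and 0 for the slope, and all genes 20 to 104, 19 to 67, 6 to 29, 7 to 114 and 0 to 10 in that order. Same-numbered sorted libraries did not deviate together (correlations of -0.0997 to 0.0861 over 18 pairs, against -0.107 to 0.0992 over 36 other pairs). Of 12 libraries, 2 correlated best with their own number. Noise within libraries can hide a shared source, so whether the numbers pair the samples stays unknown. With the replicate number as a block 21 members were higher and 10 lower, Ifit3 no longer passing (0.54, adjusted p = 0.0646 by edgeR's quasi-likelihood test), and the slope was called for 0 genes.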
